A study of Homo sapiens with 6 samples.

Results

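The apolipoprotein genes APOA1, APOA2, APOA4, APOB, APOC1, APOC3, APOE, APOH and APOM, with MTTP, the gene of the transfer protein that loads lipid onto apolipoprotein B, were followed in AGS, a cell line established from gastric carcinoma. They are 10 of the 18417 genes with a value of their own on the array. Each was taken from the transcript clusters, the array's units of measurement, that the platform annotation gives exactly 1 gene symbol, and where a gene had several, the cluster with the highest mean over all arrays stood for it. APOA2 was chosen by its measured difference between celecoxib and control arrays, the largest rise of all genes, and the other 9 because they belong to the same family or to its secretion route.

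Cells of the celecoxib group received 20 µM celecoxib, an inhibitor of the prostaglandin-producing enzyme cyclooxygenase-2, for 24 h after 48 h of growth, and control cells are labelled as receiving none. Each group had 3 arrays of the HuGene-1_0-st design, made from 250 ng of total RNA per array. The arrays are labelled biological replicates, yet the protocol mentions that samples were pooled once RNA integrity had been measured. P-values therefore measure only the spread between these arrays, which may be technical. The drug stock was in DMSO, and the labels do not say if control wells had this solvent. AGS cells are 1 line, and no genetic change or transgene is named for either group.

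Apolipoproteins are the protein part of lipoproteins, the particles that carry fat and cholesterol in blood and lymph. The liver and the small intestine make most of them: apolipoprotein B forms the frame of very-low-density particles and chylomicrons, the A proteins build high-density lipoprotein (HDL), and the C and E proteins move between particles and govern lipolysis and uptake. Their genes are known to respond to nuclear receptors such as HNF4 and the peroxisome proliferator-activated receptors, and several lie side by side in clusters on chromosomes 11 and 19. The stomach is not counted among their main sources, but some gastric carcinoma lines carry intestinal traits.

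The promoter of APOA2 is shown because this is the gene whose level differed, and that of MTTP because it held a nuclear receptor motif. MTTP levels lay close together in both groups, but its mean of 4.46 was among the dimmest 20% of genes. What the motif does in these cells was not tested. Each line gives the 250 bases before a start site in RefSeq's GRCh38.p14 assembly, 5′ to 3′ along the gene, with motif matches in capitals. The APOA2 window is chr1:161223629-161223878 on the minus strand and the MTTP window, at the second of its 2 start sites in the table, chr4:99574574-99574823 on the plus strand.
APOA2: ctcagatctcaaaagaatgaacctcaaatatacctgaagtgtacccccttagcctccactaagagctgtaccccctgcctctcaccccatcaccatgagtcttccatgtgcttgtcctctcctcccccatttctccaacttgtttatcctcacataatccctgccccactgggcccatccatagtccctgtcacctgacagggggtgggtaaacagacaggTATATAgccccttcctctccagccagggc
MTTP: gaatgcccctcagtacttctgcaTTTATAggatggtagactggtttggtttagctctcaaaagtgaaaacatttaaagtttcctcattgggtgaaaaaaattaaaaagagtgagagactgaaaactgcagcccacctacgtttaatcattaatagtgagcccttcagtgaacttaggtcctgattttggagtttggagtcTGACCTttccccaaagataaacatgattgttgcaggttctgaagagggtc

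RefSeq start sites were held for 7 of the 10 genes, with 10 windows among them. In these windows 7 motifs were searched on both strands, and no match in them overlapped another. APOA2 held 1 match, the TATA-like sequence TATATA from 29 to 24 bases before the start, which 3.73% of all 35116 windows contain. The MTTP window held the nuclear receptor motif AGGTCA (12.1% of windows), 50 to 45 bases before the start, and TATAAA (10.7%), from 227 to 222 bases before it, both on the opposite strand. The aryl hydrocarbon receptor core GCGTG (32.2%) was found in APOA4 and at the other MTTP start. The USF motif CACGTG (6.34%), the AP-1 motif TGANTCA (6.57%) and the C/EBP-ATF motif TGATGNAAT (0.888%) had no match in the windows of these genes, which says only that these letters are not there.

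APOA2 encodes the second most abundant protein of HDL in human blood. Its log2 expression was 11.67, 11.19 and 11.28 on the celecoxib arrays, against 10.21, 10.13 and 10.53 on the control arrays. The lowest celecoxib array lay above the highest control array, so the groups did not overlap. The means were 11.38 ± 0.25 with celecoxib and 10.29 ± 0.21 in the controls (log2, SD, n = 3 each). The difference was 1.09 ± 0.15 on the log2 scale (SE), with a 95% interval from 0.75 to 1.42, which is 2.13-fold with an interval from 1.69 to 2.68. It ranked 1 of 18417 genes by this difference, which is the reason it was chosen, so the value is a description and carries no test. In a bulk sample, more cells with this transcript and more of it per cell cannot be told apart.

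**Figure D1:**
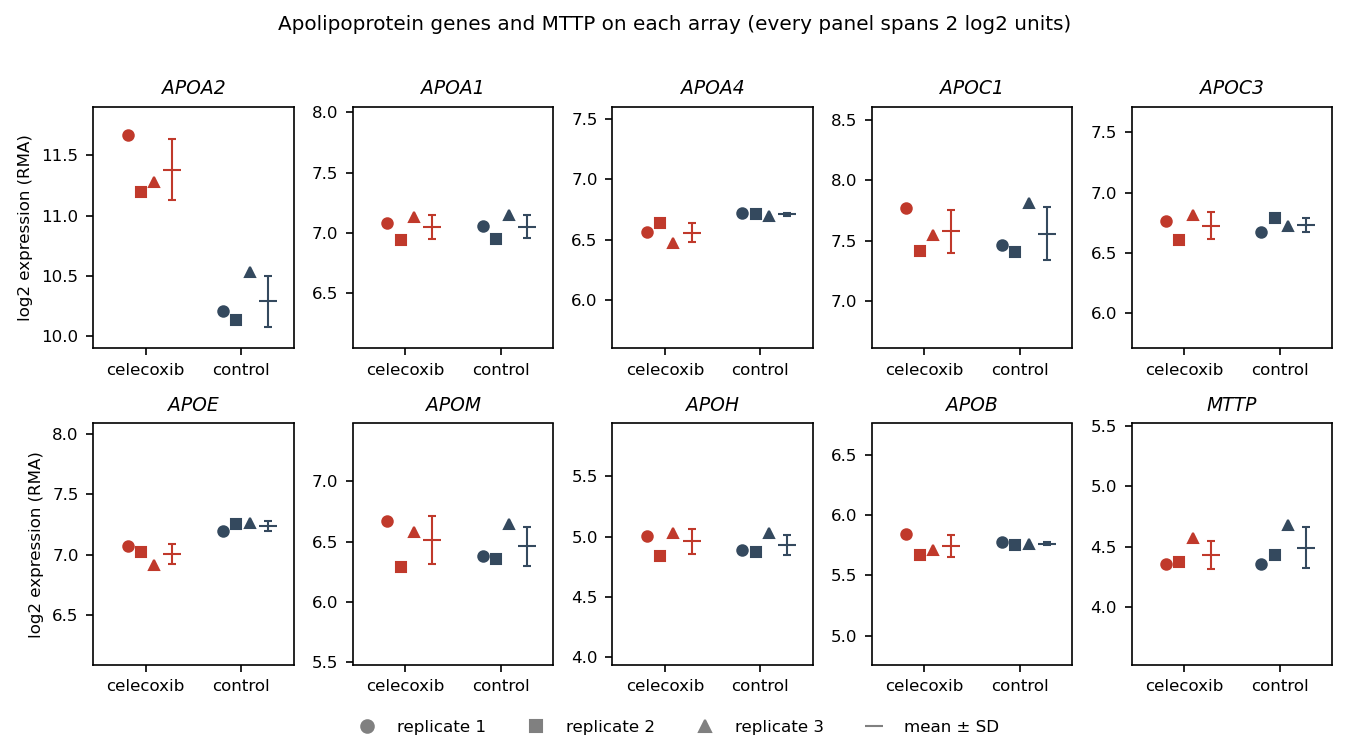
Log2 expression (RMA) of the 10 genes on each array, celecoxib left and control right, 1 panel per gene and every panel 2 log2 units high; symbols mark replicates 1 to 3, and the bar beside them is the mean ± SD. APOA2 is the gene whose groups stand far apart, while APOE and APOA4 are slightly lower with celecoxib on every array and the other 7 overlap.

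Celecoxib replicate 1 had the highest APOA2 value and was the array least like any other, its closest match being an r of 0.990 over all transcript clusters. Without it the APOA2 difference was 0.95 ± 0.12 (SE), and leaving out each of the 6 arrays in turn gave 0.95 to 1.21. Small nuclear and nucleolar RNA moved with the groups as well: the median of 207 such genes was 7.68, 7.27 and 7.27 (log2) on the celecoxib arrays and 7.14, 7.01 and 7.14 on the control arrays. With that level as a covariate, the APOA2 difference was 0.74 ± 0.14, or 1.67-fold.

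**Figure D2:**
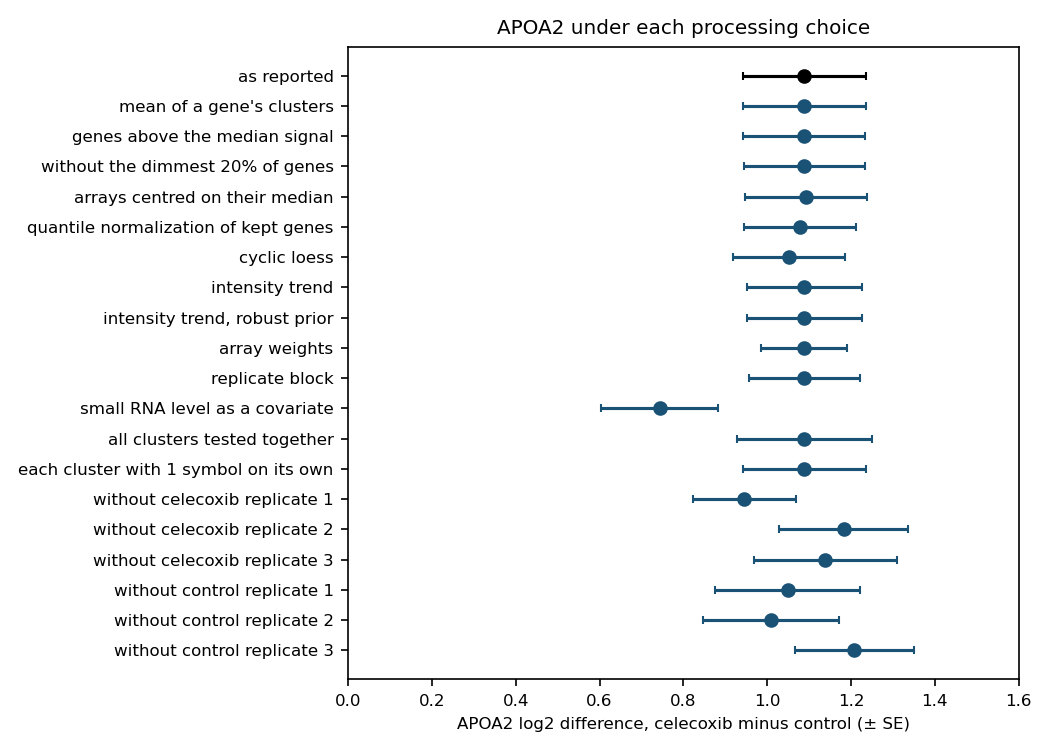
The APOA2 log2 difference, celecoxib minus control, with its SE as bars, as reported and under each of 19 other processing choices. All lie between 0.74 and 1.21, and the lowest is the fit with the small RNA level as a covariate. Filters, cluster rules, variance models and the replicate block could alter only the SE here.

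Among the 9 other genes, differences ran from -0.23 to 0.05 on the log2 scale. Over all 18417 genes, limma called 26 at an adjusted p of 0.05, or 0.141%, of which those higher with celecoxib were 0.0760% of all genes and those lower 0.0652%, while 2083 had an unadjusted p under 0.05. In the same fit 1 of the 10 genes was past that threshold, APOA2, and nothing is read from that count, since the comparison chose the gene. The 9 others were not past it, with limma adjusted p between 0.329 and 0.998. The groups did not overlap, with higher values under celecoxib, in 1 of the 10 (11.1% of all genes), and with lower values in 2 of the 10, APOE and APOA4 (7.95% of all genes). The median difference of the 9 was -0.004, against -0.007 over all genes.

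**Figure D3:**
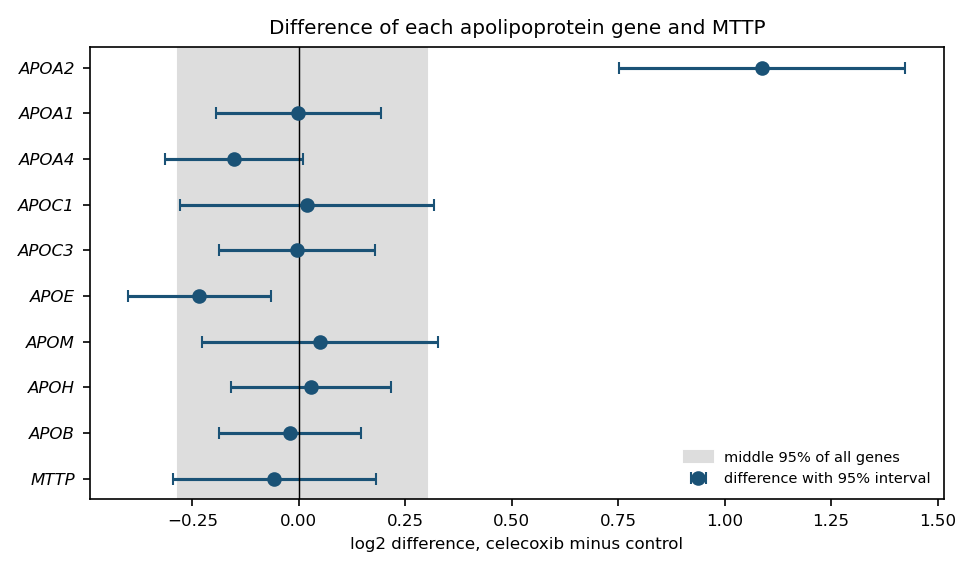
The log2 difference, celecoxib minus control, of each gene with its 95% interval; the grey band spans the middle 95% of all genes, from -0.28 to 0.30. APOA2 lies outside the band at 1.09, and the 9 other differences lie inside it.

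APOA1, the main structural protein of HDL and the partner of APOA2 on these particles, had 7.08, 6.94 and 7.14 with celecoxib, against 7.06, 6.95 and 7.15 in the controls. The groups coincided almost array by array in their range. The difference was -0.0009, with a 95% interval from -0.19 to 0.19, so a change of APOA1 signal as large as that of APOA2 lies outside its interval. This holds for the array signal only, since no detection limit could be set. A further cluster annotated to APOA1 differed from the one used by at most 0.082 on any array.

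APOA4, made mainly by enterocytes during fat absorption, had 6.57, 6.64 and 6.47 with celecoxib, against 6.72, 6.71 and 6.70 in the controls. All celecoxib arrays lay below all controls, with a difference of -0.15 and an interval from -0.31 to 0.01. A further APOA4 cluster, whose values differed by up to 0.27 from the one used, gave a difference of -0.11. On that cluster the groups overlapped, with celecoxib at 6.37, 6.46 and 6.28 and controls at 6.51, 6.49 and 6.43.

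APOC3, an inhibitor of lipoprotein lipase, lies between APOA4 and APOA1 on chromosome 11. It had 6.76, 6.61 and 6.81 with celecoxib, against 6.68, 6.79 and 6.73 in the controls, and the celecoxib arrays held both the lowest and the highest value. Its difference was -0.004, with an interval from -0.19 to 0.18. APOC1, which slows the uptake of remnants and inhibits cholesteryl ester transfer, had 7.77, 7.42 and 7.55 with celecoxib, against 7.46, 7.41 and 7.81 in the controls. The groups overlapped widely around a difference of 0.02, with an interval from -0.28 to 0.32.

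APOE, the ligand of remnant particles for receptors of the LDL receptor family, had 7.07, 7.02 and 6.91 with celecoxib, against 7.19, 7.26 and 7.26 in the controls. Every celecoxib array was below every control, and the difference was -0.23 ± 0.07 (SE), with an interval from -0.40 to -0.07. This is a 1.18-fold lower level in celecoxib cells, and its limma adjusted p over all genes was 0.329. Leaving out each array in turn gave -0.27 to -0.19. APOE and APOC1 are neighbours on chromosome 19, and the difference between their own responses was not tested.

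APOM, a lipocalin of HDL that carries sphingosine 1-phosphate, had 6.67, 6.29 and 6.58 with celecoxib, against 6.39, 6.36 and 6.65 in the controls. The difference was 0.05, with an interval from -0.23 to 0.33, and celecoxib arrays lay both above and below the controls. The 3 clusters annotated to APOM held identical values on every array and count as 1 measurement. APOH, or beta-2-glycoprotein I, a phospholipid-binding plasma protein, had 5.01, 4.84 and 5.03 with celecoxib, against 4.89, 4.88 and 5.03 in the controls. Its difference was 0.03, with an interval from -0.16 to 0.22.

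Particles of the apolipoprotein B class are built from APOB with the help of MTTP. APOB had 5.85, 5.67 and 5.71 with celecoxib, against 5.78, 5.75 and 5.76 in the controls, and the controls lay within the celecoxib range. The difference was -0.02, with an interval from -0.19 to 0.15. MTTP had 4.36, 4.37 and 4.57 with celecoxib, against 4.36, 4.43 and 4.68 in the controls. The difference was -0.06, with an interval from -0.30 to 0.18.

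Signals of different clusters depend on their probes, so the genes were not ranked by level against each other. A cluster reads some signal even where its transcript is absent, and scanner files were not used here, so no detection limit could be set. APOH and MTTP had means of 4.95 and 4.46, below the 5.63 that bounds the dimmest 20% of genes, and the other 8 passed that filter. APOA1, APOA2, APOC1 and APOE also had means above 6.79, the median of all clusters. The spread between replicates differed among the 10, with a pooled SD of 0.058 for APOA4, 0.065 for APOE and 0.066 for APOB at the low end and 0.23 for APOA2, 0.20 for APOC1 and 0.18 for APOM at the high end. Control replicate 3 was the highest control for 7 of the 10 genes, as for 43.4% of all genes, and celecoxib replicate 2 the lowest celecoxib array for 7 of the 10, as for 38.1% of all genes.

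The genes next to each of the 10 on its chromosome were read for comparison. FCER1G, the gamma chain of Fc receptors, and TOMM40L, a relative of a mitochondrial import channel, flank APOA2 on chromosome 1. FCER1G averaged 5.10 with celecoxib and 5.00 in the controls, a difference of 0.10 ± 0.13 (SE, limma adjusted p = 0.796). TOMM40L averaged 7.44 with celecoxib and 7.46 in the controls, a difference of -0.02 ± 0.07 (limma adjusted p = 0.918). Neither neighbour was past the threshold, which few genes were. Both FCER1G means lay below 5.63, the bound of the dimmest 20% of genes, and no detection limit could be set for it. Over all 14 neighbours that are not among the 10 genes, 0 passed the limma threshold (lowest adjusted p 0.413), against 0.141% of all genes. With calls this rare, that count says little about the 14. The groups overlapped in all 14, where 11.1% of all genes were higher and 7.95% lower without overlap. Differences ran from -0.29 for BAG6, next to APOM, to 0.28 for LDAH, next to APOB.

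Genes whose values followed APOA2 most closely were found by the root mean square distance between profiles over the 6 arrays, each centred on the gene's own mean. The nearest was MMP1, a collagenase, at a distance of 0.097 log2 units, followed by IGFL4 (0.18), REG1A (0.18), CYP1A1 (0.20) and SMPDL3A (0.21). MMP1 had 11.94, 11.76 and 11.75 with celecoxib, against 10.67, 10.67 and 10.95 in the controls. All 5 had their highest value on celecoxib replicate 1 and no overlap between groups, which the choice by likeness to APOA2 favours. Over all genes, celecoxib replicate 1 was the highest celecoxib array for 41.0%, and 11.1% were higher with celecoxib without overlap. In the fit over all genes REG1A and SMPDL3A were not past the threshold (limma adjusted p = 0.0896 and 0.0638). REG1A has a near-identical copy, REG1B, which such arrays separate poorly. The measure favours genes with a difference of the same size, so this is a description of 6 arrays.

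**Figure D4:**
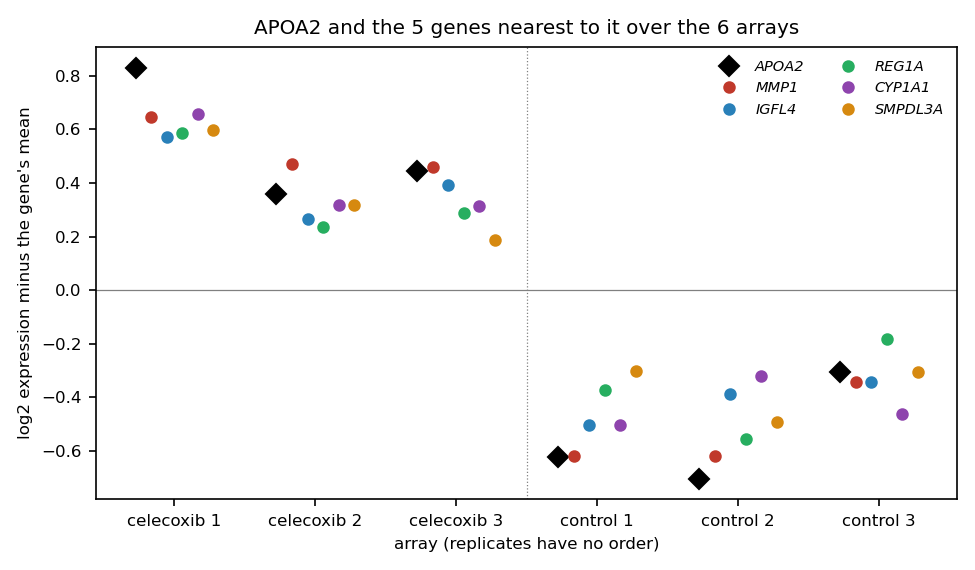
Log2 expression minus the gene's own mean over 6 arrays, celecoxib arrays left and control arrays right, for APOA2 (diamonds) and the 5 genes nearest to it; points of an array are set side by side. All 6 genes lie above 0 on the celecoxib arrays and below 0 on the controls, and each has its highest value on celecoxib replicate 1. The choice by likeness to APOA2 favours both.

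Markers were read to see which cell types the arrays resemble. The epithelial genes EPCAM, KRT8, KRT18 and KRT19 were bright, with means of 11.88, 12.54, 11.94 and 11.18. Hepatocyte markers were mixed. ALB, AFP and HP had means of 4.55, 4.38 and 4.13, and 8 of the 17 hepatocyte markers were among the dimmest 20% of genes. The fibrinogen chains FGA, FGB and FGG and vitronectin (VTN) were bright, at 10.24, 9.19, 9.29 and 10.37.

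The hepatocyte markers moved with the groups in their sum. Added on the linear scale, the 17 came to 5118, 4473 and 4430 with celecoxib, against 4057, 3788 and 4280 in the controls, without overlap. The bright FGA, FGB, FGG and VTN gave most of that sum. FGA had 10.58, 10.39 and 10.41 with celecoxib, against 9.98, 9.86 and 10.22 in the controls, a difference of 0.44 ± 0.10 (SE, limma adjusted p = 0.229). FGG differed by 0.40 ± 0.11 (limma adjusted p = 0.275), CYP3A4 by 0.27 ± 0.14 (limma adjusted p = 0.494), and FGB by 0.11 ± 0.12 (limma adjusted p = 0.731). Others lay below 0, such as HP at -0.35 ± 0.23 (limma adjusted p = 0.572) and TF at -0.13 ± 0.10 (limma adjusted p = 0.625). HP and TF were picked after their values were seen. Of the 17, 8 had differences above 0 and 9 below, with a median of -0.001. By limma 0 of the 17 passed the threshold, against 0.141% of all genes. An unadjusted limma p was under 0.05 for 2 of the 17, against 2083 of 18417 over all genes. The part of the hepatocyte markers in the APOA2 result was not tested.

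Sums of the other marker lists overlapped between the groups: for 11 enterocyte genes 3280 to 3575 with celecoxib and 3521 to 3552 in the controls, and for 8 fibroblast genes 540 to 587 with celecoxib and 559 to 600 in the controls. Among the enterocyte genes, FABP2 and SI, which serve fatty acid binding and sugar digestion, had means of 3.90 and 4.17, among the dimmest 20%, while CDH17 stood at 10.72. For 9 gastric epithelial genes the sum was 17857 to 19131 with celecoxib and 18970 to 19207 in the controls. For 7 blood cell genes it was 14016 to 14267 with celecoxib and 13050 to 14040 in the controls. LYZ, which gastric epithelium makes too, gave most of that sum, and PTPRC, the pan-leukocyte marker, had a mean of 3.98. Among these 9 gastric epithelial, 11 enterocyte, 8 fibroblast and 7 blood cell genes, 0 were past the threshold by limma, against 0.141% of all genes. An unadjusted limma p was under 0.05 for 6 of them, against 2083 of 18417 over all genes. The mucin MUC13 differed by 0.53 (adjusted p = 0.0638), AGR2 by 0.50, KRT18 by -0.21, the microvillus protein VIL1 by -0.47 (adjusted p = 0.0966), CDH17 by 0.17 and DPP4 by 0.15. Of the 11 enterocyte genes, 3 had differences above 0 and 8 below, with a median of -0.065, and FABP2 differed by -0.19. Among fibroblast and blood cell genes LUM differed by 0.24, COL1A1 by -0.12, PDGFRB by -0.13, CD14 by -0.16, LYZ by 0.06 and PTPRC by 0.06.

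The rest of the family was read from a list of 16 measured apolipoprotein and related genes. By limma 0 of the 16 passed the threshold (lowest adjusted p 0.246), against 0.141% of all genes. An unadjusted limma p was under 0.05 for 3 of 16, against 2083 of 18417 over all genes. Differences were above 0 in 5 of the list and below in 11, with a median of -0.11, against -0.007 over all genes. APOOL, a protein of the mitochondrial inner membrane, had 9.02, 8.88 and 8.81 with celecoxib, against 8.60, 8.62 and 8.57 in the controls, a difference of 0.31. APOL1, a trypanosome-killing component of HDL, had 8.42, 8.36 and 8.31 with celecoxib, against 8.55, 8.84 and 8.75 in the controls, a difference of -0.35. APOD, a lipocalin, had 9.91, 9.51 and 9.56 with celecoxib, against 9.30, 9.30 and 9.43 in the controls, a difference of 0.32. In these 3 genes the groups did not overlap, which the choice by smallest p favours. Of the 16, 2 were higher without overlap and 1 lower, against 11.1% and 7.95% of all genes. APOD differed by 0.19 without celecoxib replicate 1 and by 0.050 with the small RNA covariate, under which APOOL differed by 0.19.

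Genes of lipoprotein assembly and secretion held 1 call among 16 measured, where 0.0760% of all genes were called higher. The list was chosen with earlier results of these data known, so nothing is read from that count. SOAT1, which esterifies cholesterol in the endoplasmic reticulum, rose, with 7.62, 7.54 and 7.44 under celecoxib against 6.99, 6.93 and 6.83 in the controls (difference 0.62 ± 0.08, SE, limma adjusted p = 0.0401). Of the 16, 14 had differences above 0, with a median of 0.06, and the groups did not overlap, with higher values under celecoxib, in 7. Over all 18417 genes, 8823 had differences above 0, the median was -0.007, and 11.1% were higher without overlap. SAR1B, the GTPase of the coat that carries chylomicrons out of the endoplasmic reticulum, differed by 0.26, and MIA3, a receptor that loads bulky cargo there, also by 0.26, neither past the threshold. These 2 were picked after their values were seen. P4HB, the partner subunit of MTTP, differed by 0.04. The SOAT1 call was lost without any single array, with limma adjusted p between 0.107 and 0.237 and differences between 0.57 and 0.66.

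Genes of HDL formation and remodelling held 1 call among 15 measured, in the opposite direction, where 0.0652% of all genes were called lower. This list too was chosen with earlier results of these data known, and nothing is read from that count. LIPG, the endothelial lipase that hydrolyses HDL phospholipid, fell, with 8.98, 9.01 and 8.91 under celecoxib against 9.67, 9.68 and 9.65 in the controls (difference -0.70 ± 0.07, SE, limma adjusted p = 0.0168). The median of the 15 was -0.03, with 6 above 0 and 9 below. By limma 2 of the 15 had an unadjusted p under 0.05, against 2083 of 18417 over all genes. PON2, picked after its values were seen, went the other way from LIPG, with a difference of 0.37 ± 0.08 (SE, limma adjusted p = 0.199). ABCA1, the transporter that loads cholesterol onto APOA1, differed by -0.03, and PLTP, the phospholipid transfer protein, by -0.06. The LIPG call was likewise lost without any single array (limma adjusted p between 0.0592 and 0.194, differences between -0.72 and -0.67).

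**Figure D5:**
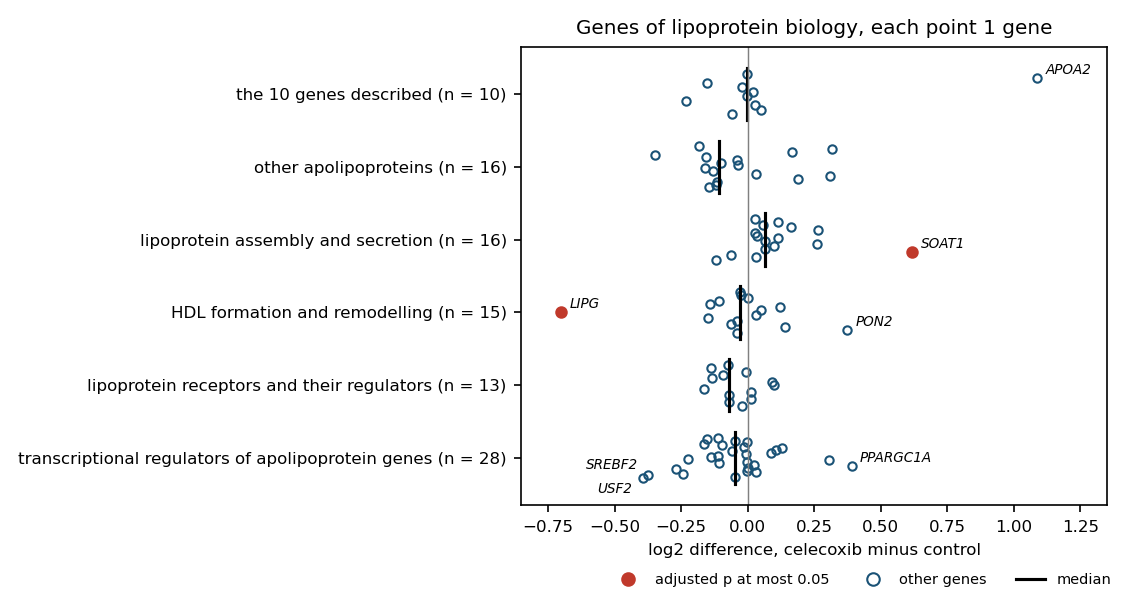
Log2 difference, celecoxib minus control, of the 10 genes and of 5 gene lists, 1 open point per gene and the median as a black bar; filled points mark genes of the 5 lists with a limma adjusted p of at most 0.05, a mark not used for the 10 genes. SOAT1 at 0.62 and LIPG at -0.70 are the filled points, and APOA2 stands alone at 1.09.

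Of 13 measured lipoprotein receptors and their regulators, 0 passed the threshold by limma, against 0.141% of all genes. By limma 0 of the 13 had an unadjusted p under 0.05, against 2083 of 18417 over all genes. Differences of the 13 ran from -0.17 to 0.10, with a median of -0.07. The members with the smallest p were LSR, a receptor for lipolysed particles, at -0.17, LRP2, or megalin, at -0.13, and CUBN, or cubilin, which takes up APOA1 in the kidney, at -0.14. Each depended on single arrays: LSR was -0.06 without celecoxib replicate 1, LRP2 was -0.07 without control replicate 3 and -0.20 without control replicate 2, and CUBN was -0.07 without celecoxib replicate 3 and -0.21 without celecoxib replicate 2.

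Of 28 measured transcription factors and coregulators known to act on apolipoprotein genes, 0 passed by limma, against 0.141% of all genes. By limma 4 of the 28 had an unadjusted p under 0.05, a share close to the 2083 of 18417 over all genes. The median difference of the 28 was -0.05, with 7 above 0 and 21 below. PPARGC1A, a coactivator of nuclear receptors, had 7.91, 7.92 and 7.73 with celecoxib, against 7.43, 7.45 and 7.51 in the controls, a difference of 0.39 ± 0.08 (SE, limma adjusted p = 0.144). NR5A2, a nuclear receptor of bile acid and cholesterol genes, had 7.81, 7.67 and 7.63 with celecoxib, against 7.36, 7.37 and 7.47 in the controls, a difference of 0.31. SREBF2, the transcription factor of cholesterol synthesis, had 7.54, 8.03 and 7.75 with celecoxib, against 8.11, 8.28 and 8.05 in the controls, a difference of -0.37. The groups did not overlap in any of these 3 genes, which the choice by smallest p favours. Of the 28, 3 were higher without overlap and 3 lower, against 11.1% and 7.95% of all genes. With the small RNA covariate SREBF2 differed by -0.088 and NR5A2 by 0.19.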

How the data were processed

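RNA of celecoxib-treated and control AGS cells was measured on 3 Affymetrix HuGene-1_0-st arrays per group. The values deposited for 33297 transcript clusters are log2 expression, which the authors made with RMA in Affymetrix Expression Console 1.1, per the submitters' processing notes. Not given in the sources used here were probe-level settings, genome build, slide and scan date, and batches could not be examined. Precision is limited by the 6 arrays.

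Of the clusters, 19460 had 1 gene symbol in the platform annotation, 1754 had several and 12083 had none, and the brightest cluster per gene left 18417 genes. These were fitted together with lmFit and eBayes of limma 3.58.1 (R 4.3.3), two-sided, with Benjamini-Hochberg adjustment over all of them and a threshold of 0.05. Differences are celecoxib minus control, errors are SE of this fit unless given as SD, and intervals are 95%. The procedure was tested on simulated data.

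The 10 genes and the lists were chosen with earlier results of these data known. Named were the 10 genes, in each list the genes past the threshold or otherwise the 3 with the smallest p, the nearest protein-coding neighbours with a value, and the 5 genes nearest to APOA2, plus those said to be picked after their values were seen. FGB, VTN, P4HB, ABCA1, PLTP and the markers given by their mean were picked by role, with their values known. Neighbours and promoter sequences came from RefSeq tables of GRCh38.p14. List genes without a value of their own were not analysed here, and 1 further motif is not reported here. Alternatives were other cluster rules, filters, normalizations and variance models, array weights, a replicate block, a small RNA covariate and leaving out each array.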

Additional observations from a re-analysis of the deposited data

How the results depend on the processing

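The APOA2 difference stayed above 0 in all 19 alternatives, from 0.74 to 1.21, and moved by more than its replicate SD in 1 of them, the small RNA covariate. That fit gave 0.74 for APOA2, -0.13 for APOB, -0.23 for APOC1, -0.30 for APOE and -0.15 for APOM, and turned LSR to 0.084. It gave LRP2 as -0.22, and left APOD, APOOL, SREBF2 and NR5A2 closer to 0. The cause was not tested. APOE and APOA4 stayed below 0 in all 19 alternatives each, between -0.30 and -0.19 and between -0.19 and -0.11. Some alternatives could not move a difference, namely the filters, variance models, replicate block and the set of clusters tested. For APOA2 and APOE, with 1 cluster each, the mean of a gene's clusters could not either. The unchanged signs were thus partly fixed in advance, and APOA2 was chosen by its rise. APOA1, APOB, APOC1, APOC3, APOH, APOM and MTTP took both signs. APOH and MTTP had no value under the filters on dim genes, and APOA4, APOB, APOC3 and APOM none above the median signal.

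The 26 calls over all genes became 59 when the dimmest 20% of genes were dropped, 76 among genes above the median signal, 44 after quantile normalization, 42 after cyclic loess, 69 with an intensity trend (69 with a robust prior as well), 177 with array weights and 1 with the small RNA covariate. With every cluster in 1 test, limma called 0 (2551 had an unadjusted p under 0.05), and leaving out each array gave 0 to 5 (1 without celecoxib 1, 5 without control 3, 0 without any other, where 1293 to 2353 genes had an unadjusted p under 0.05). The calls of SOAT1 and LIPG, 1 in each list, became 0 with the small RNA covariate, with all clusters together and without each array (0 to 0). With array weights 1 regulator of apolipoprotein genes, PPARGC1A, was called.

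Whether replicate numbers pair the arrays could not be settled. Deviations from the group means correlated at -0.017, 0.49 and 0.012 between arrays of the same number, and not every array correlated best with its own number. With the replicate block limma called 0 genes, 0 in the assembly list and 0 in the HDL list. It gave 2448 genes at an unadjusted p under 0.05, against 2083 without the block, and the APOA2 difference was 1.09 ± 0.13.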
